A study of Mus musculus with 8 samples.

Results

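Small-RNA libraries of NIH-3T3 cells on day 5 of growth to contact arrest were set against the library of day 3, to see which microRNAs (miRNAs) still differ between 2 time points that the labels both place in G0. These are 2 of the 8 libraries of the series, chosen by their labels and not by any measured value. NIH-3T3 is an immortalised mouse embryo fibroblast line whose cells stop dividing when they touch. Cells were kept in DMEM containing 10% DCS, plated at 12% confluency and kept growing for 5 days with changes of medium, and libraries were made on day 5 (G0), day 3 (G0) and day 0 (asynchronous). The other 5 libraries follow release into 20% serum of cells starved for 48 h. Of these, the 0 h library (G0) is used here for levels side by side. The 12 h and 24 h libraries (both G1) are used for scale, and all 8 libraries enter the scaling of counts. Each day is 1 library, and the labels do not say whether the days came from 1 culture. Day and library therefore cannot be told apart, no test between days is possible, and every interval below is a 95% interval that covers counting error only, since the reads carry no molecular identifiers. In such bulk RNA, fewer cells of a type and less RNA per cell cannot be told apart either.

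The day 5 library held 801593 reads and the day 3 library 763334 reads, within a range of 707202 to 8512472 over the 8 libraries. After the 3′ adapter was removed, 598555 inserts of 16 to 30 nt remained on day 5 and 572146 on day 3. Of these, 454273 (75.9%) on day 5 and 431825 (75.5%) on day 3 were counted for a miRNA arm. The fibroblast label was checked against miRNA markers, and 8 of 8 fibroblast or mesenchymal markers in the arm set had reads on both days, 160378 in sum on day 5 and 53542 on day 3. Epithelial markers summed to 3 reads on day 5 and 5 on day 3 with 5 of 7 at 0 on each day, blood and immune markers to 2 and 4 reads with 4 of 5 at 0, and endothelial miR-126a-3p had 2 reads on each day. Neural markers summed to 224 reads on day 5 and 246 on day 3, mostly miR-9-5p. miR-206, the only muscle marker with reads of 3 in the arm set, had 39 on day 5 and 79 on day 3. Some markers, among them muscle miR-1a-3p and miR-133a-3p and neural miR-124-3p, were not found in the arm set and so were not counted. Markers of pluripotent or germ-line cells summed to 4 reads on day 5 and 39 on day 3; their part in the results below was not tested.

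A miRNA hairpin is cut by Drosha and Dicer into a short duplex, and 1 strand of it, the 5p or the 3p arm, is loaded into an Argonaute protein. Bases 2 to 8 of the loaded strand, the seed, pair with target mRNAs and lower their translation and stability. In fibroblasts that leave the cell cycle, several miRNA families are known to act on cyclins, on E2F-driven genes and on growth-factor signalling, and many mature miRNAs are stable enough to build up or run down over days.

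The sequences of the arms on which the results turn are given first, as mature RNA from RefSeq for mouse build GRCm38.p6, 5′ to 3′, with the seed in capitals. Arms that were higher on day 5 include neighbours in the imprinted Dlk1-Dio3 region of chromosome 12, such as the miR-127 arm at chr12:109592854-109592875 on the plus strand, and arms from elsewhere:

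miR-434-5p: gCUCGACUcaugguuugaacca

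miR-127-5p: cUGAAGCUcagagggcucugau

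miR-127-3p: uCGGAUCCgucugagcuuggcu

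miR-300-3p: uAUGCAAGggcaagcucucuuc

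miR-411-5p: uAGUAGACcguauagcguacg

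miR-199a-3p: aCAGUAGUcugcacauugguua

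miR-199a-5p: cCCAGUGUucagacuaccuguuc

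miR-10b-5p: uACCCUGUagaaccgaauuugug

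miR-542-3p: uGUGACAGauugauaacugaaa

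miR-503-5p: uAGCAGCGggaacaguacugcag

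let-7i-5p: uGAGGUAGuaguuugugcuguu

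miR-21a-5p: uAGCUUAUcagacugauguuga

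miR-96-5p: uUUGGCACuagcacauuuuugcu

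Among the arms that were lower on day 5, the seed AAAGUGC is shared by miR-17, miR-93 and miR-106b, the seed AUUGCAC by miR-25 and miR-92a, and miR-15b carries the seed AGCAGCA of the miR-16 family:

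miR-17-5p: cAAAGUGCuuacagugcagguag

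miR-93-5p: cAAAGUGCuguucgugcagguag

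miR-106b-5p: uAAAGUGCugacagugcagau

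miR-25-3p: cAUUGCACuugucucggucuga

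miR-92a-3p: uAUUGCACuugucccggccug

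miR-15b-5p: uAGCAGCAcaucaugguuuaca

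miR-191-5p: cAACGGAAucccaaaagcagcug

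miR-423-5p: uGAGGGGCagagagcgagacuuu

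miR-365-3p: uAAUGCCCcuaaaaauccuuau

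miR-29b-1-5p: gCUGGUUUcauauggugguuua

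miR-214-3p: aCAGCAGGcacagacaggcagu

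miR-24-3p: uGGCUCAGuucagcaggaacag

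let-7e-5p: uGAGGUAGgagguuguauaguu

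A read was counted for an arm when its first 20 bases were those of the arm, and read counts below are unscaled. Ratios are day 5 over day 3 of counts scaled with TMM, a factor that assumes most arms do not differ, and levels in CPM are counts per 1000000 of the same scaled library size. An arm was called higher or lower when its ratio was at least 2-fold and its interval excluded 1. Of 1703 arms, 153 had 100 or more reads in either library, and these held 99.1% of miRNA reads on day 5 and 99.0% on day 3. At the 100-read limit, miR-299a-5p (107 reads on day 5 and 100 on day 3), miR-3072-5p (14 and 105) and miR-34c-3p (17 and 112) lay just inside, and miR-345-5p (38 and 98), miR-193b-3p (44 and 92) and miR-376b-5p (90 and 33) just outside.

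Of the 153 arms, 34 (22.2%) were higher and 31 (20.3%) were lower on day 5, and 88 were neither. Differences of 4-fold were found in both directions, since 18 arms were at least that much higher and 6 at least that much lower. The quartiles of the log2 ratio were -0.69 and 0.97 around a median of 0.05. For scale, between the serum libraries of 24 h and 12 h, both labelled G1, 14 of 140 arms (10%) were higher at 24 h and 29 (20.7%) lower, a difference between pairs that was not tested. The pairs are not alike in depth. The 24 h and 12 h libraries held 135921 and 200875 miRNA reads, against 454273 on day 5 and 431825 on day 3. The balance of directions rests on the scaling: with total miRNA reads in place of TMM, every ratio is multiplied by 0.761, the median log2 ratio is -0.35, and 28 arms (18.3%) were higher and 44 (28.8%) lower.

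**Figure D1:**
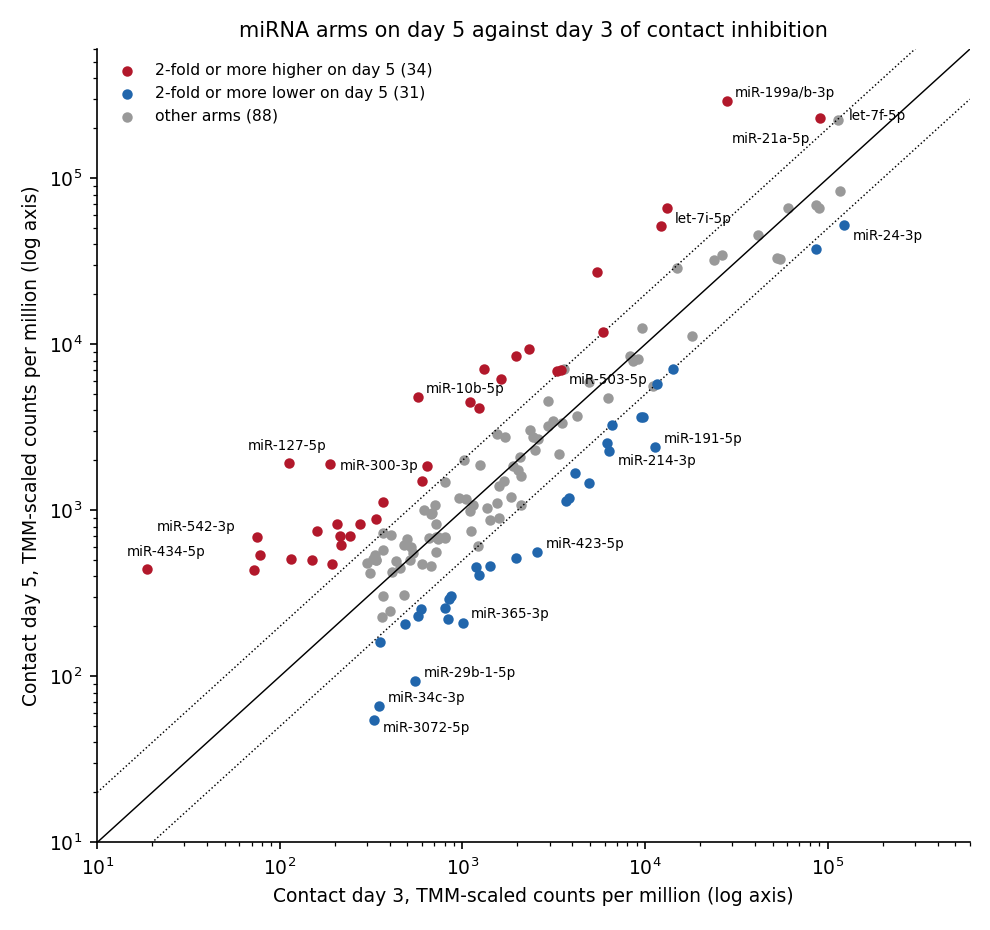
Each point is 1 of the 153 miRNA arms, with its TMM-scaled CPM on day 5 (y, log axis) against day 3 (x, log axis), where the solid line marks equal levels and the dotted lines a 2-fold difference. Red points are the 34 arms higher on day 5 and blue points the 31 lower; miR-199a-3p lies far above the line among the most abundant arms and miR-24-3p below it.

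The largest ratio among abundant arms was that of miR-199a-3p, which is identical to miR-199b-3p, is made from the Mir199a-1, Mir199a-2 and Mir199b hairpins and is known from mesenchymal cells. It had 74471 reads on day 5, against 8943 on day 3, and took up 16.4% of all miRNA reads on day 5, against 2.07% on day 3. Its scaled level was 291241 CPM on day 5 and 27985 CPM on day 3, a ratio of 10.4 (interval 10.2 to 10.6). The partner arm miR-199a-5p had 2181 reads on day 5, against 629 on day 3, a ratio of 4.33 (3.96 to 4.74). Both arms were thus higher, the 3p arm by more. The 2 counts are not of the same hairpins, since miR-199a-5p comes from Mir199a-1 and Mir199a-2 but not from Mir199b.

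miR-214-3p, which is encoded in the same gene, Dnm3os, as Mir199a-2 on chromosome 1, went the other way. It had 584 reads on day 5, against 2034 on day 3, a ratio of 0.359 (0.327 to 0.394). The partner arm miR-214-5p was not lower, with 61 reads on day 5 and 38 on day 3, too few to be measured. With reads that begin 1 or 2 bases from the RefSeq start counted too, its ratio was 1.81 (1.40 to 2.33), not called. That of miR-214-3p was then 0.390 (0.364 to 0.416). The 3p share of the Mir214 hairpin was 90.5% on day 5 and 98.2% on day 3. Mir214 lies at chr1:162223438-162223459 and the Mir199a-2 3p arm at chr1:162217883-162217904, both on the plus strand and both in an exon of Dnm3os in the GENCODE M21 annotation. Reads of miR-199a-3p cannot be divided among its 3 hairpins, so how much of them came from Dnm3os is not known.

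miR-143 and miR-145a, neighbours on chromosome 18 and best known from smooth muscle and fibroblasts, also separated. miR-143-3p had 13210 reads on day 5, against 3912 on day 3 (ratio 4.22, 4.07 to 4.38), and its rare 5p arm had 138 reads on day 5, against 25 on day 3 (ratio 6.90, 4.48 to 11.0). miR-145a-5p had 128 reads on day 5 and 165 on day 3, and its ratio of 0.970 had an interval of 0.764 to 1.23. In the mesenchymal list as a whole, 3 of the 5 arms with enough reads were higher and 1 was lower. Over all arms, 22.2% were higher and 20.3% lower. The median log2 ratio of the list was 2.08, against 0.05 over all arms.

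miR-21a-5p, an abundant fibroblast miRNA that represses Pdcd4 and is encoded within Vmp1, was called higher. It had 59412 reads on day 5, against 28909 on day 3, which is 13.1% of miRNA reads on day 5 and 6.70% on day 3. The scaled ratio of 2.57 (2.53 to 2.61) fell short of 2-fold with total miRNA reads, at 1.95. miR-22-3p, with 1771 reads on day 5 and 1054 on day 3, had a ratio of 2.10 (1.95 to 2.27), and 1.60 with total miRNA reads.

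The Dlk1-Dio3 region holds 2 groups of miRNAs, which in mice are expressed from the maternal chromosome. The first lies near Rtl1, a retrotransposon-derived gene needed in the placenta. Of the 9 measured arms of this group, 4 were higher on day 5 and none lower, against 22.2% and 20.3% of all arms. miR-434-5p had 114 reads on day 5, against 6 on day 3, a ratio of 23.8 (10.6 to 66.1), which was the largest of the 153. With 5′-shifted reads, which begin 1 or 2 bases from the RefSeq start, counted too, it had 181 reads on day 5, against 20 on day 3, and its ratio of 11.3 (7.11 to 19.0) was below the 18.1 of miR-127-5p. miR-127-5p stood at 1940 CPM on day 5, against 113 CPM from 36 reads on day 3 (ratio 17.2, 12.3 to 24.9), and its partner miR-127-3p had 1823 reads on day 5, against 420 on day 3 (ratio 5.42, 4.88 to 6.05). miR-136-5p had 226 reads on day 5, against 107 on day 3, a ratio of 2.64 (2.09 to 3.35).

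Their neighbours showed smaller ratios. miR-434-3p, the other arm of the hairpin with the largest ratio, had 115 reads on day 5 and 145 on day 3, a ratio of 0.991 (0.769 to 1.28). miR-431-5p, miR-433-3p, miR-540-3p and miR-337-5p had ratios of 0.970, 0.900, 0.672 and 0.645. The median log2 ratio of the 9 arms was -0.01, so 4 high arms stood beside 5 with ratios below 1.

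The second group, from miR-379 to miR-410, had 23 measured arms, of which 6 were higher, 2 lower and 15 neither, with a median log2 ratio of 0.42, against 22.2% higher and 20.3% lower over all arms; the share higher is thus near that of all arms. miR-411-5p, its most abundant arm on day 5, had 6941 reads then, against 1754 on day 3, a ratio of 4.95 (4.69 to 5.21). miR-379-5p had 2400 reads on day 5, against 743 on day 3 (ratio 4.04, 3.72 to 4.39), and miR-300-3p had 488 reads on day 5, against 60 on day 3 (ratio 10.2, 7.76 to 13.5). With 5′-shifted reads counted too, the ratio of miR-300-3p was 6.69 (5.42 to 8.32). The hairpins of these 3 arms lie along one stretch of chromosome 12, with others between them that were not called. miR-329-5p and miR-411-3p were higher too, with ratios of 4.73 and 3.37. The sixth, miR-409-5p, had 121 reads on day 5 and 62 on day 3 and a ratio of 2.44, but 1.86 with total miRNA reads. miR-495-3p and miR-667-3p were lower, with ratios of 0.430 and 0.405. miR-3072-5p, from the Mirg transcript just beyond miR-410 and in neither list, was lower as well, with 14 reads on day 5 and 105 on day 3.

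**Figure D2:**
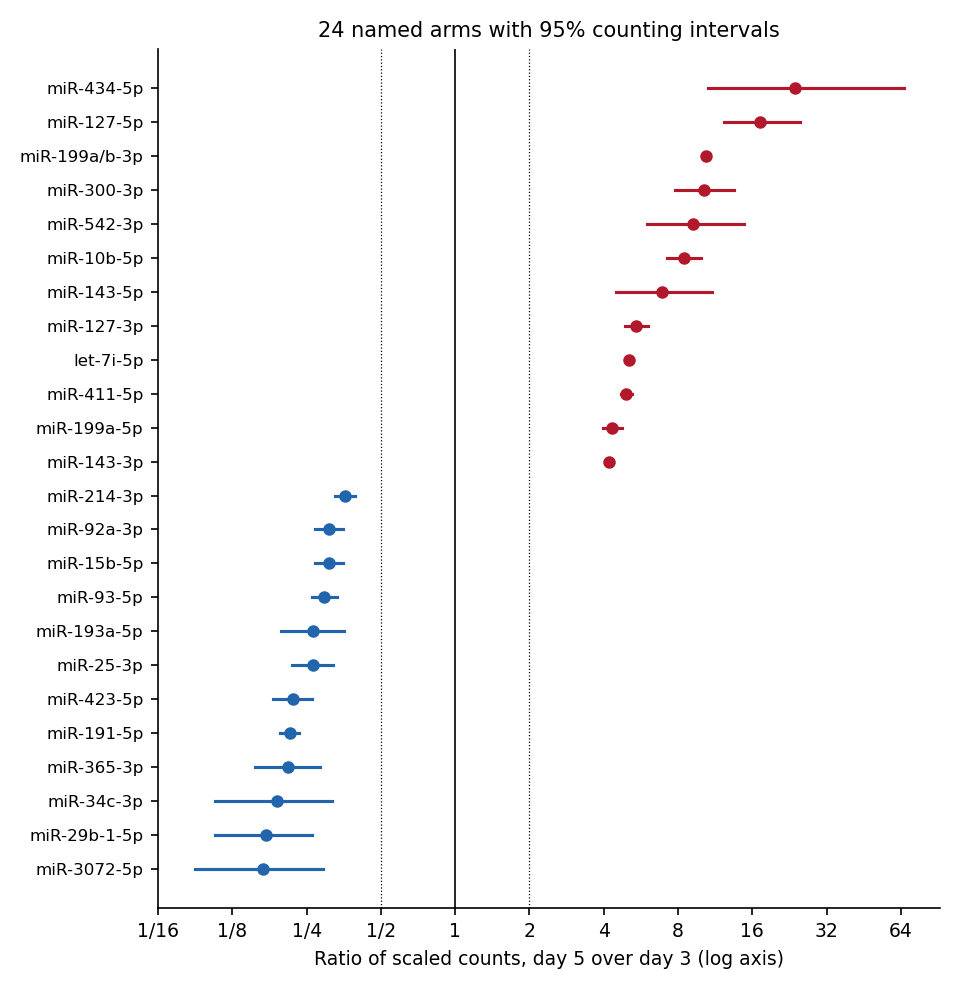
Ratios of scaled counts, day 5 over day 3 (x, log axis), with 95% counting intervals for the 12 arms higher (red) and the 12 arms lower (blue) whose intervals lay farthest from 1; dotted lines mark 2-fold. miR-434-5p has the widest interval, with 6 reads on day 3, and the interval of miR-199a-3p is narrower than its point.

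The miR-322/miR-503 cluster on chromosome X is, beside the miR-15/miR-16 loci, another source of seeds of the miR-16 type. miR-322 (miR-424 in human) and miR-503 are known to repress cyclin D and Cdc25a mRNAs. In this cluster 3 of 4 measured arms were higher and none lower, against 22.2% and 20.3% of all arms. Their median log2 ratio was 1.32. miR-542-3p had 177 reads on day 5, against 24 on day 3 (ratio 9.22, 6.0 to 14.8), and miR-351-5p had 287 reads on day 5, against 117 on day 3 (ratio 3.07, 2.46 to 3.83). These are the less abundant arms of the cluster, and the more abundant ones had ratios near 2. miR-503-5p had 1798 reads on day 5, against 1103 on day 3, and its ratio of 2.04 (1.89 to 2.20) was 1.55 with total miRNA reads. miR-322-5p had 7398 reads on day 5 and 4768 on day 3, a ratio of 1.94 (1.87 to 2.01) that was not called.

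The miR-15/16 relatives on other chromosomes did not share 1 direction. Of their 5 measured arms, 1 was higher and 1 lower, near the 22.2% and 20.3% of all arms. miR-15b-5p, from an intron of the condensin gene Smc4, had 292 reads on day 5, against 1185 on day 3, a ratio of 0.308 (0.270 to 0.350). miR-16-5p had 2861 reads on day 5 and 5760 on day 3, a ratio of 0.621 that was not called. miR-497a-5p was higher, with 211 reads on day 5 against 88 on day 3 (ratio 3.00, 2.33 to 3.89), while miR-195a-5p from the neighbouring hairpin on chromosome 11 had a ratio of 0.686 (0.543 to 0.863). All 6 arms with the seed AGCAGCA, miR-322-5p included, made up 2.57% of miRNA reads on day 5 and 2.96% on day 3.

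The miR-17/miR-92 cluster and its paralog miR-106b/miR-25 are induced by Myc and E2F and repress the Cdk inhibitor p21 and the proapoptotic protein Bim. Of their 9 measured arms, 5 were lower on day 5 and none higher, against 20.3% lower and 22.2% higher over all arms. The median log2 ratio of the 9 was -1.37, with a range of -1.91 to -0.12. Together the 9 arms made up 1.02% of miRNA reads on day 5 and 2.94% on day 3. The 3 arms of miR-106b/miR-25, whose hairpins lie inside Mcm7, a gene for a subunit of the replicative helicase, were each lower. miR-25-3p had 133 reads on day 5, against 626 on day 3 (ratio 0.266, 0.219 to 0.321). miR-93-5p had 373 reads on day 5, against 1578 on day 3 (ratio 0.295, 0.263 to 0.331). miR-106b-5p had 935 reads on day 5, against 3104 on day 3 (ratio 0.377, 0.350 to 0.405).

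In the miR-17/miR-92 cluster itself, miR-17-5p had 937 reads on day 5, against 3033 on day 3 (ratio 0.386, 0.358 to 0.416), and miR-92a-3p had 302 reads on day 5, against 1222 on day 3 (ratio 0.309, 0.271 to 0.351). miR-92a-3p also comes from a hairpin on chromosome X. The others of the chromosome 14 cluster differed less: miR-20a-5p, miR-18a-5p, miR-19b-3p and miR-19a-3p had ratios of 0.649, 0.759, 0.870 and 0.920, none of them called. By seed, 3 of 4 arms with AAAGUGC and 2 of 2 with AUUGCAC were lower, against 20.3% of all arms. The 2 miR-19 arms with GUGCAAA were not lower.

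miR-24-3p, the most abundant arm of the day 3 library by reads, was called lower. It had 13314 reads on day 5, against 39369 on day 3, and its share of miRNA reads was 2.93% on day 5 and 9.12% on day 3 (ratio 0.423, 0.414 to 0.431). It is cut from hairpins on chromosomes 8 and 13, next to miR-23a and miR-27a on the one and miR-27b on the other. miR-23a-3p and miR-27a-3p had 1817 and 1474 reads on day 5, against 4548 and 3695 on day 3. Their ratios of 0.499 each lay at the limit, and with TMM over the contact libraries alone they were 0.504 and were not called. miR-27b-3p was higher, with 385 reads on day 5 against 191 on day 3 (ratio 2.52, 2.11 to 3.01), and 1.92 with total miRNA reads.

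**Figure D3:**
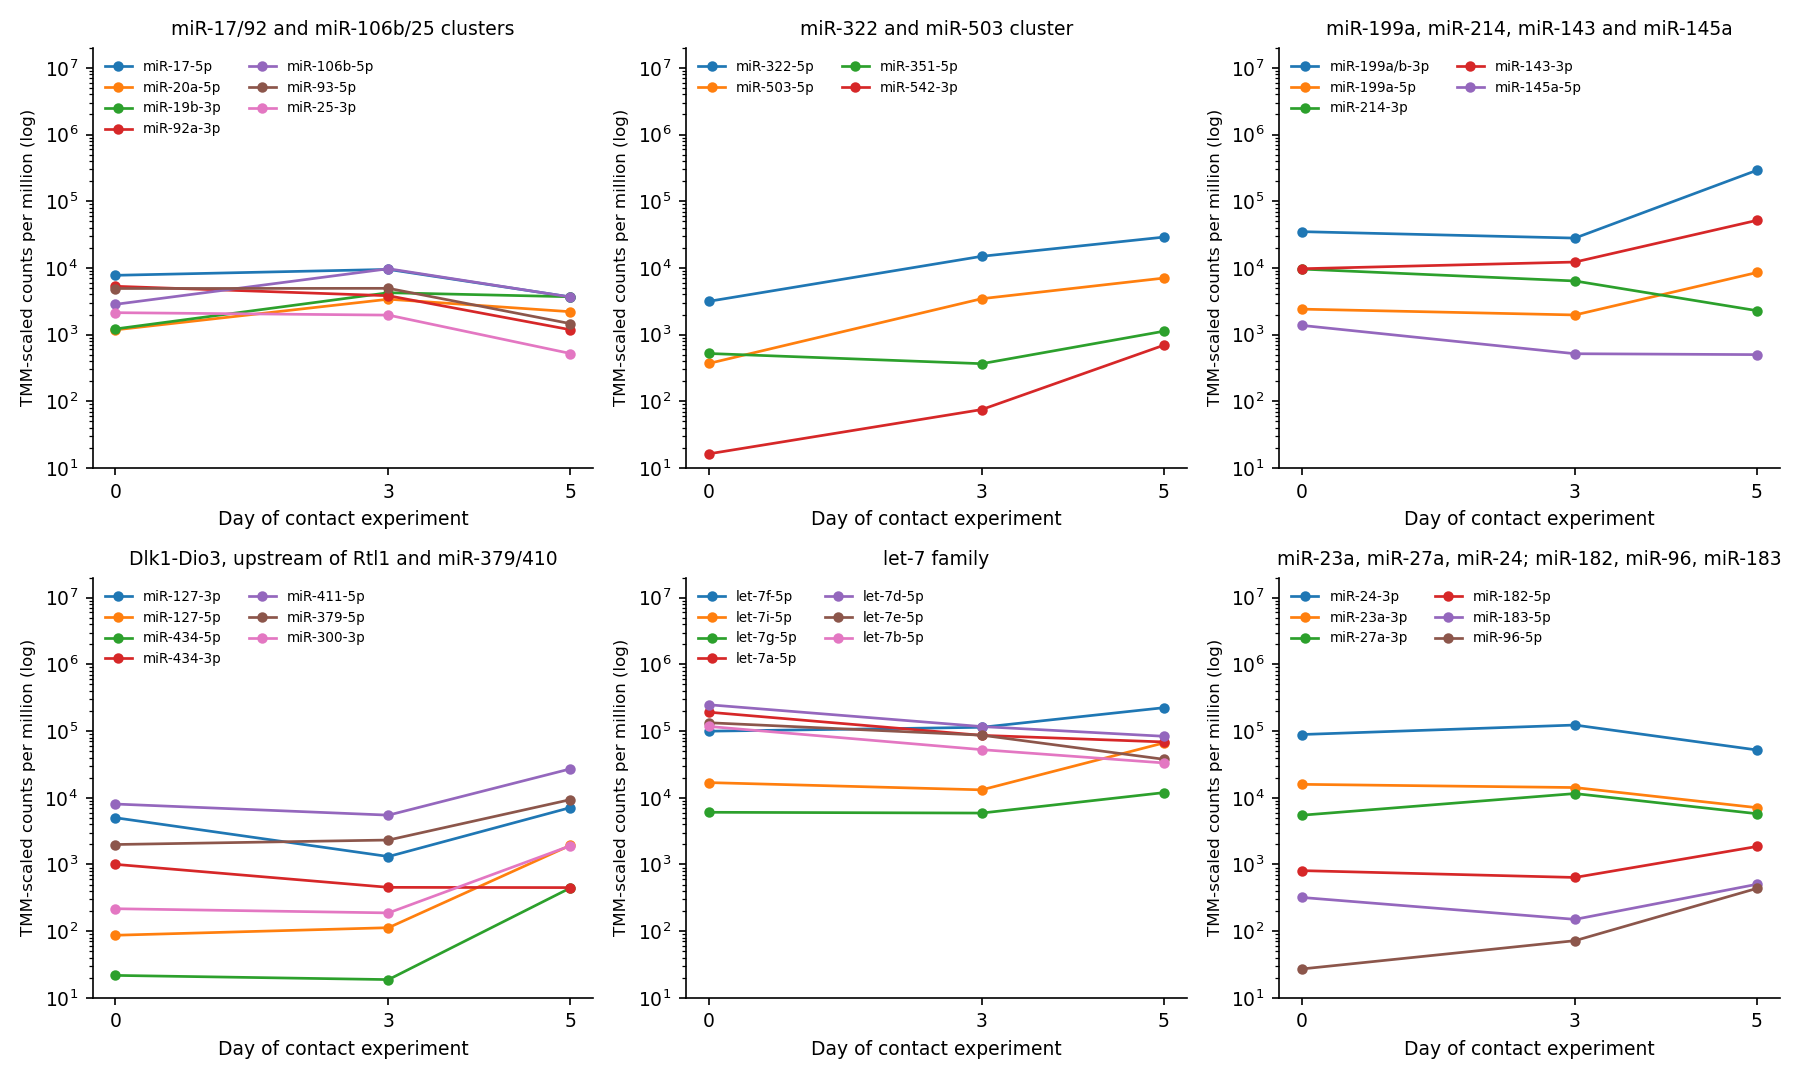
TMM-scaled CPM (y, log axis) of selected arms on days 0, 3 and 5 of the contact experiment (x), 1 library per day, in 6 panels by cluster or family; lines only join the points of 1 arm. On day 5, miR-199a-3p reached 291241 CPM, while miR-25-3p, miR-93-5p and miR-24-3p ended below their levels on days 0 and 3.

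The let-7 family, which is abundant in differentiated cells and represses Hmga2, Ras and Lin28 mRNAs, differed by member although all 9 share the seed GAGGUAG. Of the 9 arms, 2 were higher and 1 lower, against 22.2% and 20.3% of all arms, so these counts do not set the family apart. let-7i-5p had 16976 reads on day 5, against 4201 on day 3, a ratio of 5.05 (4.88 to 5.23). let-7g-5p had 3053 reads on day 5 and 1885 on day 3; its ratio of 2.02 (1.91 to 2.15) was 1.54 with total miRNA reads. let-7f-5p, the most abundant arm by mean scaled level, had 57317 reads on day 5 and 36404 on day 3 and a ratio of 1.97 (1.94 to 1.99).

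let-7e-5p was the 1 member called lower, with 9659 reads on day 5, against 27728 on day 3 (ratio 0.435, 0.425 to 0.446). miR-99b-5p, next to it in Spaca6, had a ratio of 0.496 (0.458 to 0.538), or 0.501 with TMM over the contact libraries, and miR-125a-5p, also there, had 0.922. let-7a-5p, let-7b-5p, let-7c-5p and let-7d-5p had ratios of 0.797, 0.632, 0.741 and 0.715. As a sum, let-7 arms made up 34.0% of miRNA reads on day 5 and 42.5% on day 3. Family members differ by 1 to a few bases, so sequencing errors can move a small share of reads between them.

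Among single miRNAs, miR-10b-5p, from the Hoxd cluster on chromosome 2, had 1234 reads on day 5, against 182 on day 3, a ratio of 8.47 (7.25 to 9.96). The miR-182/miR-96/miR-183 cluster on chromosome 6, known from sensory organs, was higher in each of its 3 arms, against 22.2% of all arms. miR-96-5p had 112 reads on day 5, against 23 on day 3 (ratio 6.09, 3.86 to 9.99), miR-183-5p had 129 reads on day 5, against 48 on day 3, and miR-182-5p had 476 reads on day 5, against 204 on day 3. The ratios of miR-183-5p and miR-182-5p were 3.36 and 2.92.

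Of 3 measured arms in the list for hypoxia or metabolism, 1 was called higher, against 22.2% of all arms. This was miR-33-5p, from an intron of the sterol regulator Srebf2. It had 180 reads on day 5, against 68 on day 3 (ratio 3.31, 2.49 to 4.44), while miR-210-3p and miR-103-3p had ratios of 1.60 and 1.09. miR-101b-3p, which represses the histone methyltransferase Ezh2, had 131 reads on day 5, against 37 on day 3 (ratio 4.43, 3.05 to 6.56) when reads had to begin at the RefSeq base. With 5′-shifted reads it had 571 reads on day 5, against 464 on day 3, and its ratio of 1.54 (1.36 to 1.74) was no longer called. The related miR-101a-3p had 82 reads on day 5 and 14 on day 3, too few to be measured. With 5′-shifted reads miR-101a-3p had 161 reads on day 5, against 28 on day 3, and was called higher (ratio 7.19, 4.79 to 11.15). miR-26a-5p and miR-26b-5p, which also target Ezh2, had ratios of 1.36 and 1.03, not called. miR-146b-5p, a brake on Toll-like receptor signalling, had 1148 reads on day 5, against 352 on day 3 (ratio 4.08, 3.61 to 4.61).

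miR-148b-3p and miR-152-3p, which lie in introns of the paralogs Copz1 and Copz2 and share the seed CAGUGCA, were both higher. They were the 2 arms called of 5 measured in their list, against 22.2% higher over all arms. The others of the list, miR-130a-3p, miR-130b-3p and miR-301a-3p, had ratios of 1.09, 0.62 and 1.85. miR-152-3p had 1589 reads on day 5, against 517 on day 3 (ratio 3.84, 3.48 to 4.25), and miR-148b-3p had 212 reads on day 5, against 66 on day 3 (ratio 4.01, 3.03 to 5.38). In the miR-30 family, miR-30e-5p was higher, with 158 reads on day 5 against 69 on day 3 (ratio 2.86, 2.14 to 3.86). Its relatives miR-30a-5p, miR-30d-5p and miR-30c-5p had ratios of 1.63, 1.02 and 0.568, none of them called. miR-708-5p, from an intron of Tenm4, had a ratio of 2.91 (2.21 to 3.85) and was called higher.

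The arm with the firmest loss was miR-191-5p, with 618 reads on day 5, against 3622 on day 3 (ratio 0.213, 0.196 to 0.232). miR-423-5p had 144 reads on day 5, against 820 on day 3 (ratio 0.220, 0.183 to 0.262), and miR-365-3p had 54 reads on day 5, against 320 on day 3 (ratio 0.211, 0.155 to 0.282). miR-193a-5p, whose hairpin is a neighbour of Mir365-2 on chromosome 11, had 57 reads on day 5, against 268 on day 3 (ratio 0.266, 0.196 to 0.355). These 4 arms share no seed. The miRNAs of the long Sfmbt2 intron, a rodent expansion, had 3 arms with enough reads. Of these, miR-466-3p and miR-466d-3p were lower, with ratios of 0.386 and 0.324, against 20.3% lower over all arms.

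miR-29b-1-5p and miR-34c-3p were also lower, both from few reads on day 5. miR-29b-1-5p had 24 reads on day 5, against 176 on day 3 (ratio 0.170, 0.106 to 0.262), and miR-34c-3p had 17 reads on day 5, against 112 on day 3 (ratio 0.190, 0.107 to 0.318). The 3p arms of the miR-29 family, which repress collagen mRNAs, had ratios of 1.31 (miR-29a), 1.09 (miR-29c) and 0.749 (miR-29b), none called. In the miR-34 family, which p53 induces, miR-34b-5p and miR-34a-5p had ratios of 1.04 and 0.723.

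Of 6 measured growth-factor responsive arms, 2 were higher (miR-21a-5p and miR-146b-5p) and 1 lower, counts near the 22.2% and 20.3% of all arms. miR-31-5p was the lower one, with 1686 CPM on day 5, against 4112 CPM on day 3 (ratio 0.410, 0.367 to 0.457). miR-155-5p had a ratio of 0.518 (0.448 to 0.596), and miR-221-3p and miR-222-3p, repressors of the Cdk inhibitor p27, had ratios of 0.890 and 0.508, none of them called. None of the 4 arms of the miR-181 family passed the rule in either direction, with ratios between 0.504 for miR-181b-5p and 1.76 for miR-181c-5p.

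**Figure D4:**
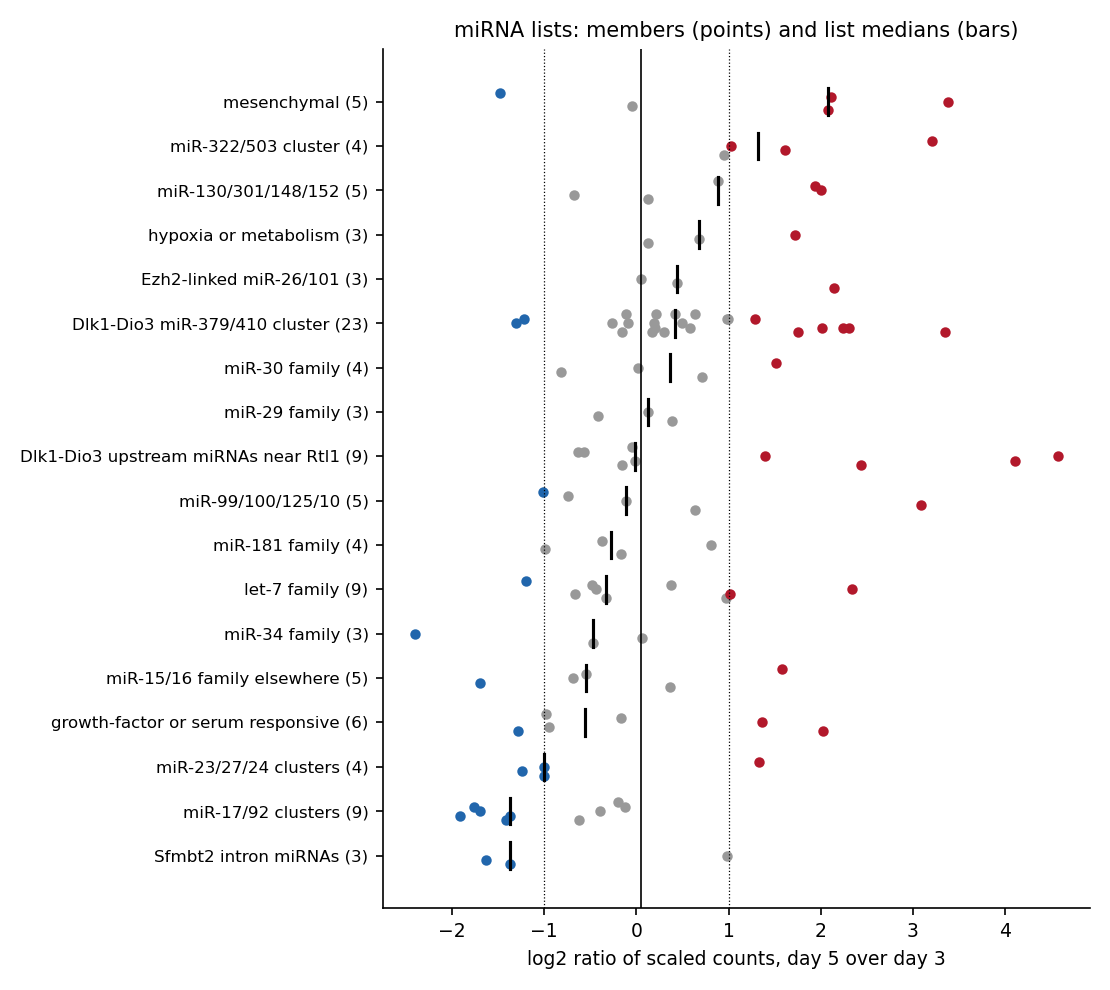
Points are the measured arms of 18 lists (number in brackets) by log2 ratio of scaled counts, day 5 over day 3 (x), red where called higher, blue where called lower and grey otherwise; short bars are list medians, the long line is the median over all 153 arms (0.05) and dotted lines mark 2-fold. Medians run from 2.08 for the mesenchymal list to -1.37 for the miR-17/miR-92 clusters and the Sfmbt2 intron miRNAs.

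Set beside day 0 and the serum-starved library, the arms that separate days 3 and 5 had varied levels. These levels rest on scaling between unlike libraries. The TMM factor was 1.48 in the starved library and 0.570 on day 0, against 0.740 on day 3 and 0.563 on day 5. Of inserts of 16 to 30 nt, 5.50% were miRNA reads in the starved library, against 75.9% on day 5. miR-199a-3p stood at 34950 CPM on day 0, 27985 CPM on day 3 and 291241 CPM on day 5, and at 88666 CPM in cells starved of serum. miR-127-3p stood at 5017 CPM on day 0, 1314 CPM on day 3 and 7129 CPM on day 5, and at 12193 CPM in starved cells. With this scaling the level on day 3 was thus the lowest of the 3 days for both arms. For miR-199a-3p the order of days 0 and 3 depends on the scaling.

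miR-503-5p stood at 368.8 CPM on day 0, 3452 CPM on day 3 and 7032 CPM on day 5, and miR-542-3p at 16.3, 75.1 and 692 CPM, so that both were higher at each later day. In starved cells these arms stood at 2978 and 216 CPM, and the place of miR-503-5p against days 3 and 5 depends on the scaling. miR-106b-5p stood at 2842 CPM on day 0, 9713 CPM on day 3 and 3657 CPM on day 5, with the middle day the highest, and at 1084 CPM in starved cells. miR-29b-1-5p, at 2473 CPM on day 0, 551 CPM on day 3 and 93.9 CPM on day 5, was lower at each later day and had 3 reads in starved cells.

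The share of the 2 arms of a hairpin does not depend on scaling between libraries. Among 86 hairpins with 100 or more reads of both arms together in each library, the interval of the 3p share on day 5 lay apart from that on day 3 in 23, above it in 9 and below it in 14. The widest gap was in miR-434, whose 3p arm made up 50.2% (43.6 to 56.9) of 229 reads on day 5 and 96.0% (91.6 to 98.5) of 151 reads on day 3. The 3p share was also lower on day 5 in miR-409 (32.0% on day 5 and 56.9% on day 3), miR-379 (11.1% and 31.0%) and miR-127 (78.6% and 92.1%). It was higher on day 5 in miR-337 (41.5% on day 5 and 11.6% on day 3), miR-296 (68.7% and 45.3%) and miR-423 (25.8% and 5.64%).

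By locus, a split chosen after the values were seen, 7 of 22 Dlk1-Dio3 hairpins had a lower 3p share on day 5 and 1 a higher share, against 7 lower and 8 higher of 64 hairpins elsewhere. The abundant miR-143 hairpin kept nearly all its reads in the 3p arm, 99.0% on day 5 and 99.4% on day 3.

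Ends of the arms also differed. Of 121 arms with 100 or more reads on both days, the mean insert was shorter on day 5 in 82 and longer in 39, by a median of -0.05 nt. Over all inserts, 21-nt molecules made up 15.8% on day 5 and 9.03% on day 3, while 22-nt molecules made up 48.8% and 49.3% and 24-nt molecules 2.99% and 4.90%. Such shares over all inserts also move with the mix of arms, and the part of that mix was not tested. miR-143-3p, which was higher on day 5, was 21 nt long in 56.5% of its reads on day 5 and 50.8% on day 3. Of miR-199a-3p reads, 28.7% were 21 nt long on day 5 and 19.1% on day 3. miR-411-5p, also higher on day 5, was a 21-nt arm on both days, in 85.7% of reads on day 5 and 87.1% on day 3.

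Added bases at the 3′ end that the hairpin does not encode are made by nucleotidyl transferases. Tails of 1 or 2 U were on a median of 2.38% of an arm's reads on day 5 and 1.59% on day 3, and the interval of the share lay above that of day 3 in 26 of 121 arms and below it in none. miR-143-3p differed most, with 14.1% (13.6 to 14.8) on day 5 and 3.07% (2.55 to 3.66) on day 3. Among the 26 arms, miR-152-3p followed, with 20.2% on day 5 and 12.8% on day 3.

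Tails of 1 or 2 A had the opposite balance, with medians of 6.13% on day 5 and 7.91% on day 3, and 24 arms lower and 2 higher. miR-10b-5p carried an A tail on 2.59% of reads on day 5 and 13.7% on day 3, miR-155-5p on 11.6% and 22.6%, miR-30c-5p on 10.9% and 23.8%, miR-195a-5p on 5.08% and 16.7%, and miR-374b-5p on 24.7% and 43.1%. In miR-21a-5p, with its many reads, the A-tailed share was 1.88% on day 5 and 4.84% on day 3.

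**Figure D5:**
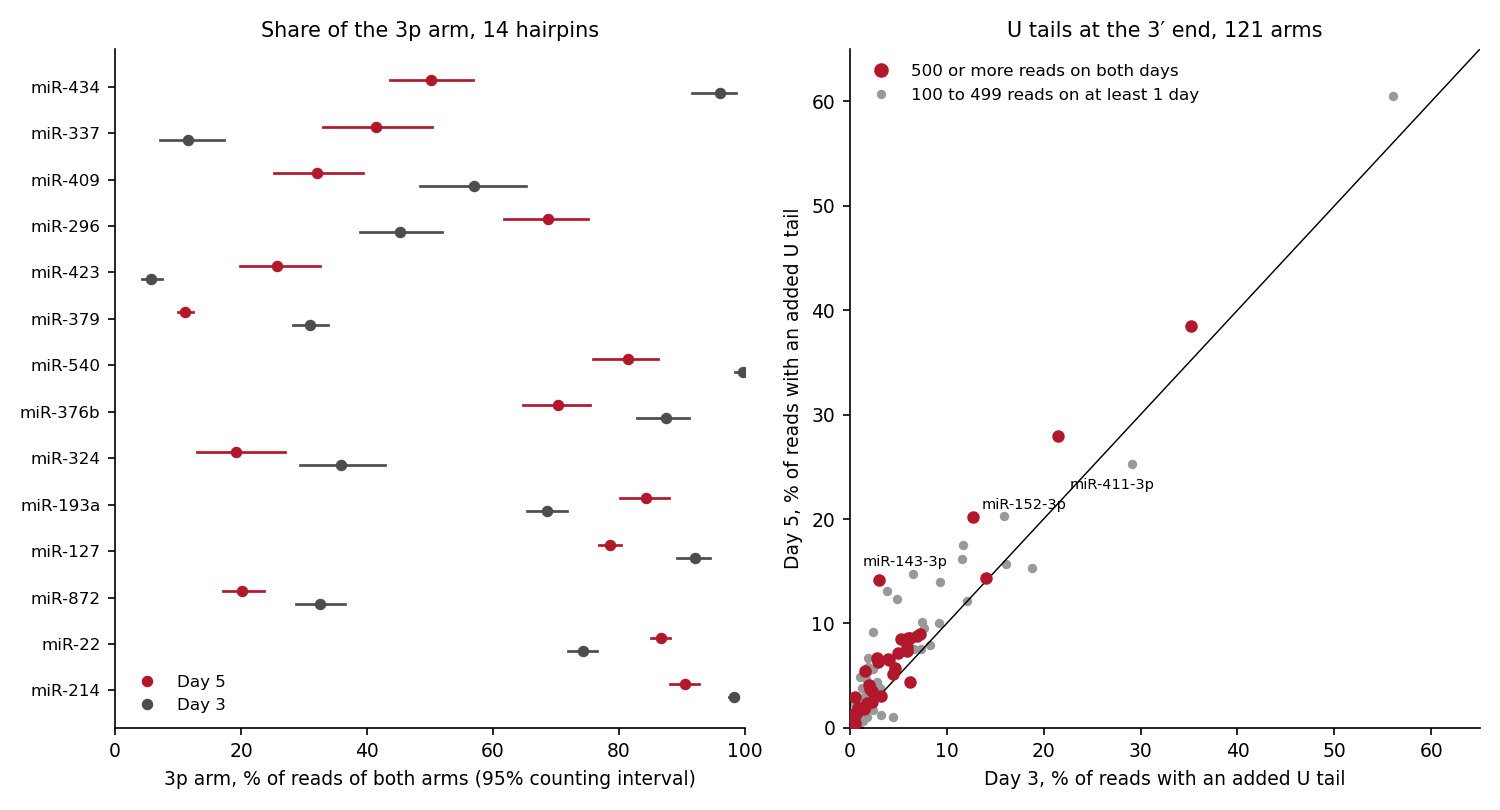
Left, share of the 3p arm among the reads of both arms (x, %) with 95% counting intervals on day 5 (red) and day 3 (grey) for the 14 hairpins with the largest gap among those whose intervals lay apart. Right, share of reads with an added U tail on day 5 (y, %) against day 3 (x, %) for 121 arms; most points lie above the line of equality, miR-143-3p (14.1% on day 5 and 3.07% on day 3) clearly so.

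Some arms begin 1 or 2 bases before or after their RefSeq start, which gives them another seed. The share of such 5′-shifted reads had a median of 2.04% on day 5 and 2.05% on day 3, and among the 121 arms differed most in miR-199a-3p, at 14.1% (13.9 to 14.3) on day 5 and 28.2% (27.4 to 29.0) on day 3. Its most frequent inserts, as read in DNA letters with the seed of each form in capitals, are given to show how the seed moves:

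starting 1 base earlier: tACAGTAGtctgcacattggtt

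starting at the RefSeq base: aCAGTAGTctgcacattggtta

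starting 1 base later: cAGTAGTCtgcacattggtta

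The form that starts 1 base later had 7357 reads on day 5 and 2965 on day 3, the earlier form 4589 and 497, and the RefSeq form 74471 and 8943. With shifted reads counted too, the ratio of the arm was 8.71 (8.54 to 8.87). In miR-140-3p, an arm known in cartilage, the shifted forms outnumbered the RefSeq form, at 63.7% of reads on day 5 and 57.6% on day 3, and its ratio with them was 1.41 (1.35 to 1.48).

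Outside the mature arms, other stretches of miRNA hairpins, which include the shifted forms, made up 7.84% of inserts on day 5 and 5.90% on day 3. Fragments of snoRNAs and scaRNAs, which guide RNA modification, made up 0.386% (0.371 to 0.402) on day 5 and 0.270% (0.256 to 0.283) on day 3. Among inserts of 18 to 26 nt only, they made up 0.138% (0.128 to 0.148) and 0.122% (0.113 to 0.132), with overlapping intervals. Fragments of mitochondrial rRNA made up 0.0319% (0.0275 to 0.0368) on day 5 and 0.0689% (0.0622 to 0.0760) on day 3. Inserts with no match to the small RNAs used were 15.7% on day 5 and 18.2% on day 3.

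Base composition differed between the arms called lower and the others. Arms higher on day 5 had a median of 45% G and C in their first 20 bases, as had arms not called and all arms. Arms lower on day 5 had a median of 50%. Of the 41 arms with 55% or more G and C, 7 were higher and 15 lower, whereas of the 31 arms with 40% to below 45%, 9 were higher and 2 lower. Below 40%, 4 were higher and 4 lower of 22 arms. From 45% to below 50% these counts were 10 and 5 of 33, and from 50% to below 55% they were 4 and 5 of 26. Across the 153 arms Spearman's rho between G and C content and the log2 ratio was -0.17, a description over arms that share both libraries. The part of base composition in the results above was not tested.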

How the data were processed

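The deposited files give, per the file headers and values, the authors' counts of each distinct 36-nt read, which still includes 3′ adapter. Base calling, filters, any aligner and any build were not given in the sources used here, and the labels describe library preparation only by citation.

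The adapter was cut off when 6 or more of its bases matched, tolerating 1 mismatch in every 8, and inserts of 16 to 30 nt were kept; 23.7% of day 5 reads and 23.2% of day 3 reads had no adapter. Arms were 1656 sequences of the RefSeq mature table (GRCm38.p6) and 47 more defined from the reads on GENCODE M21 hairpins that the table lacks; 10 of the 153 arms tested are of that kind. TMM factors (edgeR 4.0.16, R 4.3.3) from all 8 libraries were 0.563 on day 5 and 0.740 on day 3, so CPM sum to more than 1000000. Ratios carry exact conditional binomial intervals and shares exact binomial (Clopper-Pearson) intervals (Python 3.11.15, scipy 1.17.1). The ratio step was tested on simulated data. Tails are up to 2 bases that the hairpin does not encode.

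Named arms were the 12 in each direction ranked by the interval bound nearest to 1, the 10 most abundant, up to 4 members of each list with enough reads, and the hairpins and arms with the largest changes in arm share or tails; a few more members were added after their values were seen. The comparison, lists and rules were chosen with earlier results of these data known. Alternatives were other scalings, including DESeq2 1.42.0 size factors, other read minimums, folds, insert lengths, adapter settings and matching rules.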

Additional observations from a re-analysis of the deposited data

How the results depend on the processing

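Counts of arms higher and lower on day 5 (34 and 31) were 28 and 44 when scaled by total miRNA reads, 28 and 43 by total inserts, 31 and 35 by DESeq2 size factors, 36 and 28 by TMM over the 3 contact libraries, and the same 36 and 28 by TMM over days 3 and 5 alone, an alternative chosen after seeing the data. Scaling moved the median log2 ratio over all arms to -0.35 with total miRNA reads and -0.14 with DESeq2 size factors, and every list median by the same amount. Under total miRNA reads miR-21a-5p, miR-27b-3p, miR-409-5p, miR-22-3p, miR-503-5p and let-7g-5p were no longer called; under DESeq2 size factors miR-22-3p, miR-503-5p and let-7g-5p; under TMM over the contact libraries miR-23a-3p, miR-27a-3p and miR-99b-5p. With 5′-shifted reads counted too, also chosen after seeing the data, 38 of 166 arms were higher and 32 lower; of the 153, miR-101b-3p and miR-23a-3p lost their calls, and miR-376a-3p (higher) and miR-181b-5p (lower) gained one. With at least 500 reads, 15 arms were higher and 16 lower of 73, and with at least 1 read, 67 and 59 of 540, since other numbers of arms were tested. The 24 arms with the firmest ratios kept their calls under the 5 other scalings, and under the 4 other ways of counting wherever they had enough reads. With 500 reads of both arms, 12 of 37 hairpins had 3p shares whose intervals lay apart. The share of mature arms among inserts, day 5 minus day 3, was 0.42 percentage points in inserts of 16 to 30 nt and -0.50 points in inserts of 18 to 26 nt; the cause was not tested. No library could be left out, since each day has 1. No paired analysis was possible because each day has 1 library and no test was made. Depth limits arms such as miR-434-5p, with 6 reads on day 3, most.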
